A study of Mus musculus with 30 samples.

Results

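The results below concern 10 mouse genes, 6 of the Serpina3 cluster (Serpina3f, Serpina3g, Serpina3i, Serpina3k, Serpina3m and Serpina3n) and 4 of the acute-phase genes outside it (Orm1, Orm2, Saa3 and Hp), out of 43629 genes in a table of read counts. They were chosen by name, several of them on measured values of the same libraries. Serpina3m was selected on its difference in read counts between d3 and d7 in lean mice, and for the other 9 genes the comparison behind the choice was not recorded, so that the adjusted p-values given here describe these libraries and are not independent evidence. RNA was sequenced from the fracture callus, the repair tissue that bridges a broken bone, of male C57BL/6J mice aged 20 weeks that were fed either a lean diet or a high-fat diet. The mice on the high-fat diet are called DIO (diet-induced obese), and both groups received the same open fracture of the right tibia, held by a nail in the marrow cavity. Lean and DIO callus was analysed on d3, d5, d7 and d10 after fracture, and DIO callus also on d14 and on d21. Each diet and day had 3 mice, and each of the 30 libraries was made from 1 callus. Lean callus of d14 and d21 was not analysed here, so that time and diet cannot be separated on those days.

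Serpins of the A3 clade are inhibitors that trap serine proteases of leukocytes. In humans SERPINA3 is a lone gene that encodes antichymotrypsin, whereas in the mouse it was duplicated into a cluster. Acute-phase proteins are plasma proteins whose synthesis, mainly in the liver, changes in the first days after injury under the control of cytokines that act through STAT3, C/EBP and NF-kappa-B factors. Haptoglobin (Hp) binds free haemoglobin, the Orm genes encode acid glycoproteins that carry drugs and steroids, and Saa3 encodes a serum amyloid A that is made outside the liver by macrophages, adipocytes and stromal cells.

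Total counts per library ran from 13247122 to 26365620, with a median of 16854427. Levels are given as CPM, the count of a gene scaled to a common library size with TMM factors, and detection of a gene means 3 counts or more. One lean library of d10, replicate 1, stood apart from the other 2 of its group, with a summed level of 10 chondrocyte markers of 84124 CPM against 18400 to 19716 CPM. Tested differences that rest on it are given with and without it, whereas correlations are given only with it. The 10 hepatocyte markers together reached at most 3.92 CPM in any library, with Cps1 and Cyp3a11 at 0 counts in all 30, so that liver RNA was at or near background in the callus. The 10 osteoblast markers summed to between 18851 and 78923 CPM and all of them were detected.

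The 6 Serpina3 genes lie on chromosome 12 of the mouse genome GRCm38, inside a cluster of 14 annotated genes and pseudogenes between positions 104112724 and 104414329. Serpina3f spans chr12:104214544-104221129, Serpina3g chr12:104236245-104241939, Serpina3i chr12:104263122-104269372 and Serpina3n chr12:104406729-104414329, all on the plus strand. Serpina3k (chr12:104338486-104346144) and Serpina3m (chr12:104338486-104394257) start at the same position on the same strand, and 60 bases of exon belong to both, which is 2.92% of the exon length of Serpina3k and 3.49% of that of Serpina3m. Orm1 (chr4:63344560-63348163) and Orm2 (chr4:63362449-63365878) are neighbours on chromosome 4, Saa3 is on the minus strand at chr7:46711998-46715700 and Hp on the minus strand at chr8:109575128-109579172.

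How far the genes can be told apart by reads of 53 bases depends on their sequence. The last aligned 60 bases of coding sequence of the 6 Serpina3 genes are shown, from GENCODE M21 transcripts on the plus strand of chromosome 12. They were picked as the 60 bases without gaps that differ most from Serpina3n, summed over the other genes. Capitals mark bases that differ from Serpina3n.
Serpina3n: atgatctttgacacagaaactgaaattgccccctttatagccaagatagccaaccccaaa
Serpina3f: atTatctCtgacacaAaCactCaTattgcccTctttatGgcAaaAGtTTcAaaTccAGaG
Serpina3g: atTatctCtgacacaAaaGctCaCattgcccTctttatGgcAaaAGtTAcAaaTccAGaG
Serpina3i: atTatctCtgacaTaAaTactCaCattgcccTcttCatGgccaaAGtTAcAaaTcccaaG
Serpina3m: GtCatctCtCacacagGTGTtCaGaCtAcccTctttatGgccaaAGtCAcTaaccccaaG
Serpina3k: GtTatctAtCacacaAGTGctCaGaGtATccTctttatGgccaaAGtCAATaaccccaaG

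In this stretch, picked for its differences, the other 5 genes differ from Serpina3n at between 17 and 22 of 60 bases. Over the aligned coding sequence Serpina3n was between 82.9% and 85.2% identical to the other 5, whereas Serpina3f and Serpina3i were 91.2% identical and Serpina3k and Serpina3m 91.7%. Orm1 and Orm2 were 89.9% identical. Of all windows of 53 bases in its transcripts, Serpina3n shared 5.47% with another gene, Serpina3f 9.04%, Serpina3g 14.2%, Serpina3i 14.4%, Serpina3k 12.9% and Serpina3m 17.5%. For Orm1 the share was 19.5%, for Orm2 21.4%, for Saa3 3.61% and for Hp 0%. Reads in such windows fit more than 1 gene, and whether they were dropped or assigned depends on the counting, so the small levels of Serpina3i, Serpina3k, Serpina3m and Orm2 are the least certain. For windows as long as both mates together Serpina3n, Saa3 and Hp shared 0% and the other 7 genes between 1.98% and 5.37%.

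Upstream sequence was at hand for 6 of the 10 genes, in RefSeq on GRCm38.p6. A stretch that lines up between 4 of the Serpina3 promoters is shown because it holds a STAT pattern, TTCNNNGAA, in 3 of them and not in the fourth. The capitals mark the 9 bases at the place of the pattern, and all 4 stretches are on the plus strand, at chr12:104236102-104236141 for Serpina3g, chr12:104214411-104214450 for Serpina3f, chr12:104263008-104263047 for Serpina3i and chr12:104406573-104406612 for Serpina3n.
Serpina3g: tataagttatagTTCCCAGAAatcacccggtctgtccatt
Serpina3f: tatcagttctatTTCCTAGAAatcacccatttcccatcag
Serpina3i: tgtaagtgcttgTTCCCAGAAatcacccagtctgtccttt
Serpina3n: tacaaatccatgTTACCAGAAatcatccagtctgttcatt

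Counted from 1 at the first capital, Serpina3n differs from Serpina3g by C3A, which breaks the pattern, and Serpina3f by C5T, which does not. The pattern reads the same on both strands, and 7.02% of 32851 promoters hold it in the 250 bases before the start. The capitals end 113 bases before the first RefSeq start of Serpina3f and 94 before that of Serpina3i, which GENCODE places at the same bases. They end 202 bases before a second RefSeq start of Serpina3f. For Serpina3g they end 25 bases before the RefSeq start and 123 before the GENCODE start given above, and for Serpina3n 115 and 136 bases. A C/EBP pattern, TTGCNNAA or TTNNGCAA, is held by 9.56% of promoters and was found in those of Serpina3f, Orm2 and Saa3. A pattern for NF-kappa-B, in 1.21% of promoters, was found in none of the 6. These are matches of letters and say nothing of binding in the callus.

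The genes differed in level by orders of magnitude. Per kilobase of exon, the scale on which genes can be compared, Hp had the highest mean level over the 30 libraries at 166 CPM per kb, followed by Serpina3n at 26.3 and Serpina3g at 11.4 CPM per kb. Orm1 stood at 5.56, Saa3 at 2.37, Serpina3f at 1.28 and Orm2 at 1.03 CPM per kb. Serpina3m at 0.512 and Serpina3i at 0.167 CPM per kb were low, and Serpina3k was close to absent. Serpina3g, Serpina3n, Orm1, Saa3 and Hp were detected in 30 of 30 libraries, Serpina3f in 28, Serpina3i in 23, Serpina3m in 21, Orm2 in 19 and Serpina3k in 1. Serpina3k, known as a kallikrein-binding serpin of the liver, had 6 counts in all, 4 of them in DIO callus of d3 and 2 in DIO callus of d7, and it passed the filter on low counts in none of the 18 comparisons.

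In lean callus Serpina3n and Saa3 were highest on d3 and lower on each later day. Serpina3n, an inhibitor of granzyme B and neutrophil elastase, stood at 103, 58.1 and 104 CPM on d3, at 44.1, 57.3 and 44.7 CPM on d5 and at 28.5, 16.1 and 20.4 CPM on d7. On d10 replicate 1, the library that stood apart, held 36.4 CPM and the other 2 held 9.79 and 10.6 CPM. The groups of d3 and d7 did not overlap, nor did those of d3 and d10. Saa3 stood at 8.9, 11.5 and 14.5 CPM on d3, at 2.59, 3.52 and 2.84 CPM on d5, at 2.23, 3.76 and 0.629 CPM on d7 and at 0.501, 0.335 and 0.78 CPM on d10, and every library of d3 was above every later one.

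Serpina3m, a close copy of Serpina3k, stood at 2.19, 1.61 and 2.85 CPM on d3, at 0.764, 0.538 and 0.142 CPM on d5 and at 0.0586, 0.119 and 0.172 CPM on d7, a difference for which it was picked and for which no test is given. On d10 the 3 lean libraries held 1 count between them. In bulk samples such as these, fewer cells of a type and less RNA per cell cannot be told apart.

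Hp and Orm1 were also lower on d10 than on d3 in lean mice, with more spread between mice. Hp stood at 220, 434 and 416 CPM on d3, 72.9, 309 and 174 CPM on d5, 209, 302 and 212 CPM on d7 and 67.6, 185 and 133 CPM on d10, with d3 and d10 not overlapping. Orm1 stood at 6.17, 11.1 and 4.65 CPM on d3 and at 0.251, 2.82 and 1.32 CPM on d10. Within lean callus the mouse with the lowest Hp was also the one with the lowest Orm1 on d5, d7 and d10, but not on d3. Orm2 was at 6.88 CPM in replicate 1 of d3, against 0.86 and 0.45 CPM in the other 2 mice of that day, and at 0.41 CPM or less in every later lean library. It did not pass the filter on low counts in the lean libraries.

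Serpina3g and Serpina3f did not share this course. Serpina3g, also called Spi2A, inhibits cathepsins inside cells and is known from activated lymphocytes and macrophages. It stood at 9.67, 23.4 and 20.4 CPM on d3, 29.1, 28.1 and 18.9 CPM on d5, 20.5, 21.5 and 19.7 CPM on d7 and 11.2, 25.6 and 27.9 CPM on d10, and the group of d3 overlapped each later one. Serpina3f stood at 0.297, 2.55 and 1.45 CPM on d3 and 2.69, 3.08 and 2.64 CPM on d10, with a log2 difference of 0.98 ± 0.57 (SE, adjusted p = 0.217, edgeR).

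**Figure D1:**
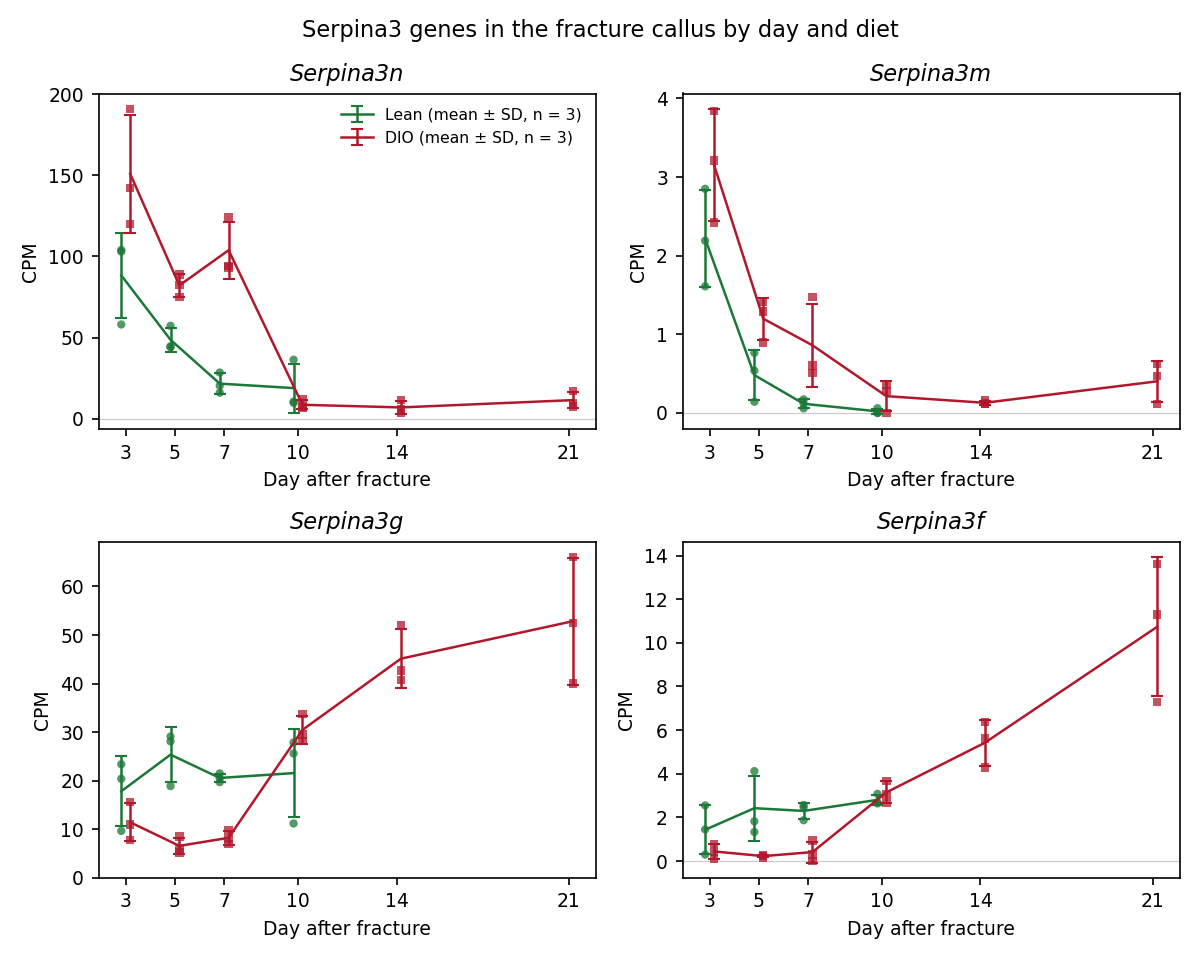
CPM of Serpina3n, Serpina3m, Serpina3g and Serpina3f by day after fracture, with a point for each mouse and lines through the group means (± SD, n = 3) for Lean and DIO. Serpina3n and Serpina3m start high on d3 and end low in both diets, whereas Serpina3g and Serpina3f reach their highest levels on d21 in DIO callus.

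The lean days were compared with edgeR's quasi-likelihood test over all 16471 genes that passed the filter. Serpina3m, whose choice rested on the lean libraries of d3 and d7, is left out of the counts for lean days. For any difference among the 4 days, 2 of the other 7 tested members passed the threshold of an adjusted p of 0.05, Saa3 (0.00169) and Serpina3n (0.0128), where 19% of all genes did. On d5 against d3 none of these 7 passed (0.449% of all genes called), and of them only Saa3 had an unadjusted p under 0.05. DESeq2 called Saa3 among these 7 (adjusted p = 0.00309), and 605 genes in all. On d7 against d3, 2 of these 7 were called lower, where 0.352% of all genes were. Saa3 fell by 2.38 ± 0.48 (adjusted p = 0.0304) and Serpina3n by 2.01 ± 0.45 (adjusted p = 0.0488) on the log2 scale. The call of Serpina3n was lost without any 1 of the 9 lean libraries of d3, d5 and d7 (adjusted p up to 0.181), and that of Saa3 without any library of d3 or without replicate 1 of d7.

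On d10 against d3, 4 of the 7 tested members other than Serpina3m were called lower, where 14.1% of all genes were. Saa3 fell by 4.37 ± 0.56 (adjusted p = 0.000418), Serpina3n by 2.19 ± 0.45 (0.00486), Orm1 by 2.28 ± 0.75 (0.0395) and Hp by 1.43 ± 0.47 (0.0387) on the log2 scale. For Serpina3m, with 1 count against 139 in the libraries of d3 that also served its choice, the level of d3 was 102 times that of d10, with an exact 95% interval of 18 to 4058 that covers counting error only. Without replicate 1 of d10 the fall of Serpina3n was 3.08 (adjusted p = 0.000169), and Hp (1.12, 0.106) and Orm1 (1.78, 0.0846) were no longer called. Their calls were also lost without replicate 3 of d10, replicates 1 or 3 of d7 or replicate 2 of d3, that of Hp also without replicate 3 of d3, and that of Orm1 also without replicate 1 of d3 or replicate 2 of d7. Between d7 and d10, 0 of the 7 members other than Serpina3m passed (2.73% of all genes, 1 member at an unadjusted p under 0.05). Saa3 was the nearest at 1.99 ± 0.55 lower (adjusted p = 0.0654). DESeq2 called 1 of these 7, and 1827 genes in all.

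In DIO callus the members split into those that fell and those that rose. The level of Serpina3n was 191, 120 and 142 CPM on d3, 88.9, 82.5 and 75.1 CPM on d5 and 94.3, 124 and 93.3 CPM on d7. It then stood at 6.82, 11.9 and 7.21 CPM on d10, 5.67, 11.6 and 3.75 CPM on d14 and 7.48, 17.3 and 9.79 CPM on d21. The lowest library of d3 to d7 held 75.1 CPM and the highest of d10 to d21 held 17.3 CPM, so that the drop lay between d7 and d10.

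Saa3 was at 27, 29.3 and 21.9 CPM on d3 and already at 4.55, 2.93 and 2.93 CPM on d5. On d7 it stood at 7.62, 13.5 and 5.78 CPM, with each mouse above each mouse of d5, and from d10 on no library exceeded 4.13 CPM. Serpina3m was at 3.84, 2.42 and 3.21 CPM on d3, 1.29, 0.896 and 1.41 CPM on d5 and 0.504, 1.47 and 0.605 CPM on d7, and later at 0 to 0.621 CPM. Orm2 was at 1.08, 0.738 and 0.847 CPM on d3, reached 3.71, 2.72 and 1.88 CPM on d7 and was at 0 to 0.216 CPM from d10 on. The 3 highest levels of Orm2 in DIO callus were thus those of d7.

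The other members ran the opposite way. Serpina3g stood at 7.75, 15.6 and 11 CPM on d3, at 8.48, 6.03 and 5.24 CPM on d5 and at 7.99, 6.98 and 9.75 CPM on d7. It stood at 33.7, 28.2 and 29.5 CPM on d10, 52, 40.7 and 42.7 CPM on d14 and 66.1, 52.5 and 40 CPM on d21. The lowest library of d10 to d21 lay above the highest of d3 to d7, the mirror of Serpina3n. Serpina3f, at 0 to 0.941 CPM in the 9 libraries of d3 to d7, stood at 2.68, 3.68 and 3.08 CPM on d10, 5.61, 6.37 and 4.28 CPM on d14 and 13.6, 11.3 and 7.3 CPM on d21, with no overlap between those 3 days. Hp stood at 165, 116 and 76.1 CPM on d3, 80.5 ± 23.1 CPM (mean ± SD, n = 3) on d5, 219, 147 and 300 CPM on d7, 215, 201 and 209 CPM on d10, 313, 463 and 425 CPM on d14 and 1046, 608 and 531 CPM on d21. Orm1 stood at 1.32, 2.09 and 2.42 CPM on d3, 1.16, 1.37 and 0.563 CPM on d5, 3.78, 2.06 and 5.11 CPM on d7, 2.76, 2.88 and 4.2 CPM on d10, 3.36, 5.07 and 2.8 CPM on d14 and 20.1, 7.57 and 11.8 CPM on d21, where every mouse was above every earlier DIO mouse. For both genes the mice of d7 and d10 overlapped. Serpina3i was at 0 to 1.07 CPM throughout, and its adjusted p for any difference among the DIO days was 0.357.

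**Figure D2:**
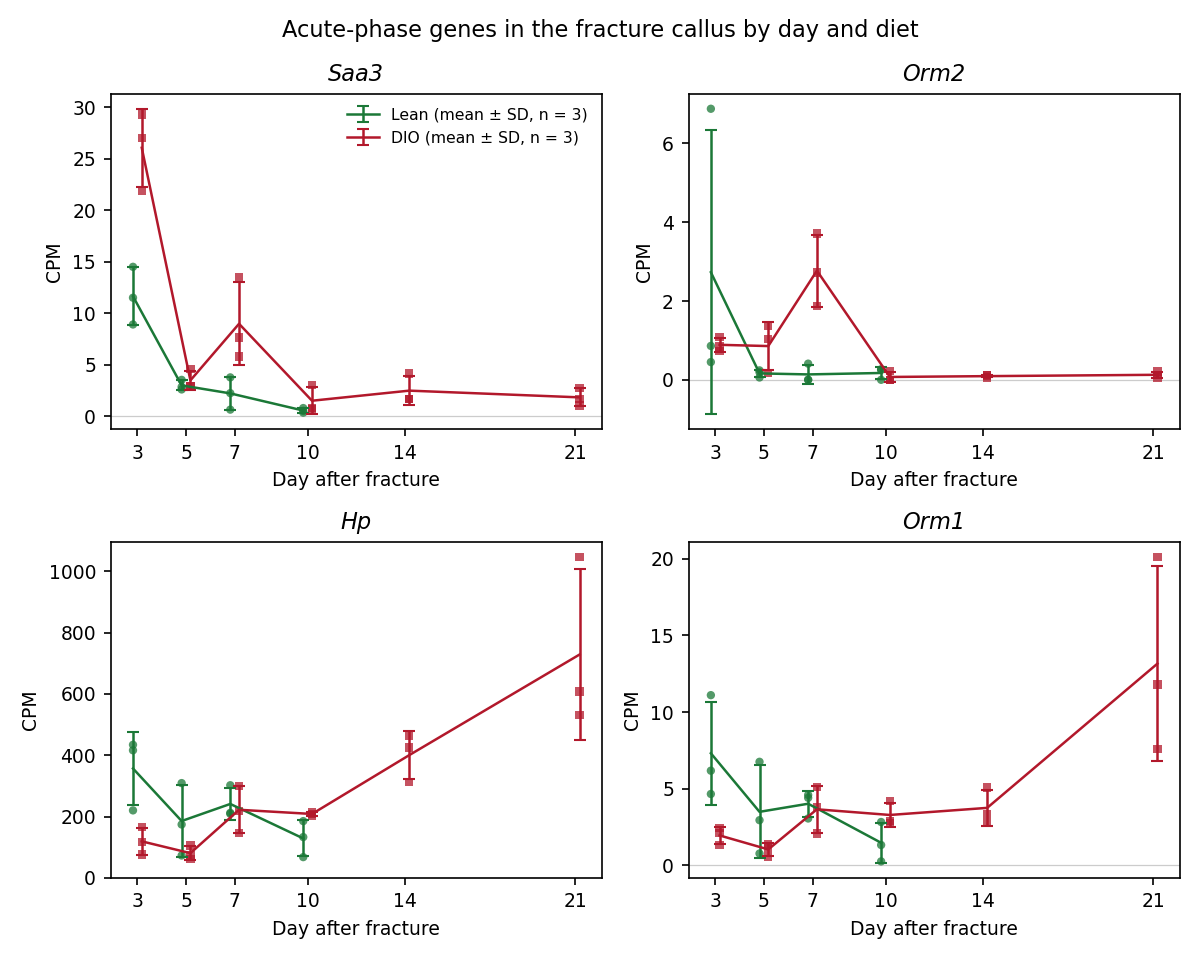
CPM of Saa3, Orm2, Hp and Orm1 by day after fracture, with a point for each mouse and lines through the group means (± SD, n = 3) for Lean and DIO. Saa3 is highest on d3 in both diets, Orm2 has a peak on d7 in DIO callus, and Hp and Orm1 are highest on d21 in DIO callus, with the Hp of replicate 1 at 1046 CPM.

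The DIO days were compared in a fit of the 18 DIO libraries over 16995 genes. Serpina3f passed the filter on low counts there only through libraries of d10 to d21. Orm2 and Serpina3m passed it only through libraries of d3 to d7. Each had its higher group means on those days, so the direction of its later calls against d3 was in part set by the filter. For any difference among the 6 days, 8 of 9 tested members passed, Serpina3f, Orm2 and Serpina3m among them, where 59.1% of all genes did. On d5 against d3 Saa3 fell by 2.90 ± 0.49 on the log2 scale (adjusted p = 0.00463) and was the only member of 9 called lower, with 0.282% of all genes called lower. On d7 against d3, 0 of 9 passed (7.3% of all genes), with Saa3 at an adjusted p of 0.0503 and Serpina3m at 0.0577. At an unadjusted p under 0.05 there were 5 members, and the share of all genes under that p is not given for any comparison. DESeq2 called 3 members, Hp, Saa3 and Serpina3m, and 1740 genes in all.

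From d10 on both directions were called. On d10 against d3, Serpina3n and Saa3 were called lower (10.8% of all genes) and Serpina3g higher (11.1%). The calls of Serpina3m and Orm2 as lower and of Serpina3f as higher were in part set by the filter. Serpina3n fell by 4.12 ± 0.38 (adjusted p = 1.87e-06), Saa3 fell by 4.13 ± 0.53 (5.72e-05) and Serpina3m fell by 3.82 ± 0.68 (0.000894) on the log2 scale. For Orm2, with 3 counts against 50, the level of d3 was 11.9 times that of d10 (exact 95% interval 3.85 to 59.8, adjusted p = 0.0111), and the call was lost without replicate 3 of d10 (adjusted p = 0.0564). Serpina3f rose by 2.75 ± 0.60 (0.0041) and Serpina3g by 1.41 ± 0.24 (0.000717).

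On d14 against d3 the same members were called in the same directions (12.5% of all genes lower and 13.8% higher). Hp joined them with a rise of 1.75 ± 0.32 (adjusted p = 0.000703). On d21 against d3 all of these were called again, and Orm1 as higher (21.8% of all genes lower and 23.5% higher). None of these 8 calls was lost when any 1 DIO library was left out, but those of Serpina3f, Orm2 and Serpina3m were in part set by the filter. Serpina3f rose by 4.51 ± 0.61 (adjusted p = 1.94e-05), Orm1 by 2.75 ± 0.42 (6.58e-05), Hp by 2.62 ± 0.33 (9.76e-06) and Serpina3g by 2.20 ± 0.25 (3.8e-06) on the log2 scale. Serpina3n fell by 3.72 ± 0.37 (1.23e-06), Saa3 by 3.84 ± 0.52 (1.89e-05), Serpina3m by 2.94 ± 0.61 (0.000914) and Orm2 by 2.71 ± 0.78 (0.0093). Between d14 and d21, 1 of 9 members was called higher (10.6% of all genes), Orm1 by 1.81 ± 0.40 (0.00619), a call that was lost without replicate 1 of d21 (adjusted p = 0.0503). Hp was 0.86 ± 0.31 higher on d21 than on d14 (adjusted p = 0.058).

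The exchange of the 2 most abundant Serpina3 genes was visible in their share of the cluster. Of the summed CPM of the 6 Serpina3 genes, Serpina3n made up 90.1% ± 3.8 (SD, n = 3) in DIO callus of d3, 90.9% ± 1 on d5 and 90.9% ± 2 on d7. On d10 it made up 20.2% ± 5.92, on d14 12% ± 6.71 and on d21 15.5% ± 6.38. Serpina3g took most of the rest, with 71.5% ± 7.05 on d10, 78.1% ± 8.05 on d14 and 69.5% ± 5.64 on d21. In lean callus the share of Serpina3n was 78.8% ± 10.9 on d3, then 63.3% ± 5.37 on d5 and 47.5% ± 8.02 on d7. By d10 it was 41.1% ± 27.1, with 72.4% in replicate 1 and 25.3% and 25.6% in the other 2 mice. The summed level itself went from 167 ± 33.2 CPM on d3 to 42.6 ± 2.27 CPM on d10 and 75.9 ± 15.9 CPM on d21 in DIO callus, and from 111 ± 22.1 CPM on d3 to 43.5 ± 6.03 CPM on d10 in lean callus.

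**Figure D3:**
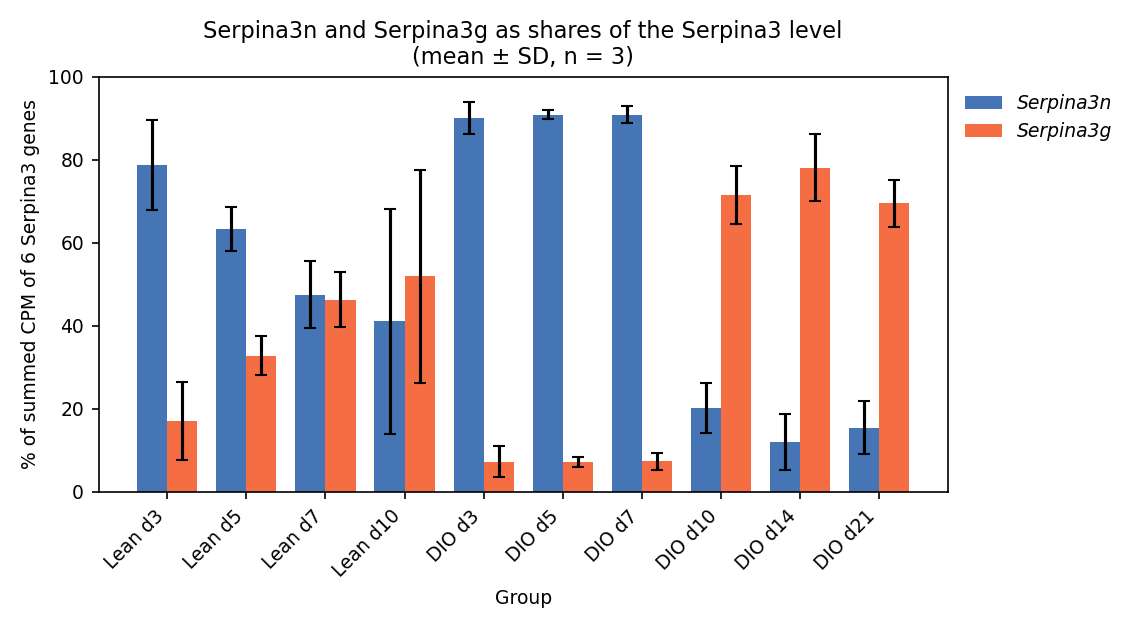
Serpina3n and Serpina3g as percent of the summed CPM of the 6 Serpina3 genes in each group (bars are means ± SD, n = 3). In DIO callus Serpina3n makes up 90.1% to 90.9% on d3 to d7 and 12% to 20.2% on d10 to d21, while in lean callus the share on d10 (41.1%) has an SD of 27.1, with replicate 1 at 72.4%.

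The effect of the diet was tested within each day, with 3 DIO against 3 lean mice. On d3, 0 of 9 tested members passed, as did 0 of 15772 genes (0%), and 4 members had an unadjusted p under 0.05. The groups of Serpina3n, Saa3, Hp and Orm1 did not overlap on that day. The shares of all genes under that p, or without overlap on this and the later days, are not given here. Both are descriptions only. Saa3 was 1.17 ± 0.21 higher in DIO callus on the log2 scale (adjusted p = 0.093), Orm1 1.90 ± 0.38 lower in size (adjusted p = 0.105) and Hp 1.58 ± 0.33 lower in size (adjusted p = 0.114). DESeq2 called these 3, with adjusted p-values of 6.77e-05, 0.000264 and 9.77e-05, and 728 genes in all. The summed level of the 10 neutrophil markers on d3 was 2398 to 3841 CPM in DIO and 12037 to 26253 CPM in lean callus, in the direction of Hp and Orm1, and its part in their difference was not tested.

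On d5 Serpina3n was higher and Serpina3g and Serpina3f were lower in DIO callus, and none of these groups overlapped. Serpina3n stood at 88.9, 82.5 and 75.1 CPM in DIO against 44.1, 57.3 and 44.7 CPM in lean mice, a rise of 0.76 ± 0.13 (adjusted p = 0.0498). Serpina3g stood at 8.48, 6.03 and 5.24 CPM against 29.1, 28.1 and 18.9 CPM and fell by 1.94 ± 0.24 (0.0296). Serpina3f stood at 0.268, 0.239 and 0.169 CPM against 1.82, 4.12 and 1.33 CPM and fell by 3.37 ± 0.57 (0.0458). Serpina3f passed the filter on low counts only through the lean mice, so that its call was in part set by the filter. Of the tested members other than Serpina3f, 1 was called higher (0.134% of all genes) and 1 lower (0.948%). All 3 calls were lost without any 1 of the DIO mice of d5 or without lean replicate 2, and those of Serpina3n and Serpina3f also without lean replicate 1, with adjusted p-values of up to 0.218.

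On d7 the difference in Serpina3n was larger. It stood at 94.3, 124 and 93.3 CPM in DIO against 28.5, 16.1 and 20.4 CPM in lean callus, a rise of 2.27 ± 0.24 (adjusted p = 0.0047) that kept its call without any 1 of the 6 mice (adjusted p 0.00657 to 0.0256). Serpina3g stood at 7.99, 6.98 and 9.75 CPM against 20.5, 21.5 and 19.7 CPM and fell by 1.31 ± 0.21 (0.0195). Orm2 stood at 3.71, 2.72 and 1.88 CPM against 0.41, 0 and 0 CPM, a log2 difference of 4.28 ± 0.91 (adjusted p = 0.0437) that rests on 7 lean counts, all of them in 1 mouse, and ran from 3.72 to 8.46 as 1 mouse was left out. Orm2 passed the filter on low counts only through the DIO mice, and Serpina3f only through the lean mice. The directions of their differences were thus in part set by the filter. Of the tested members other than Orm2 and Serpina3f, 1 was called higher (1.4% of all genes) and 1 lower (0.92%). The groups of Saa3 and Serpina3f did not overlap either, with Saa3 2.04 ± 0.55 higher (adjusted p = 0.0947) and Serpina3f 2.46 ± 0.79 lower in size (adjusted p = 0.153) in DIO mice, whereas Hp (147 to 300 CPM against 209 to 302 CPM) and Orm1 (2.06 to 5.11 CPM against 3.05 to 4.59 CPM) overlapped. The call of Serpina3g was lost without lean replicate 1 or 2 or DIO replicate 1, and that of Orm2 without lean replicate 2 or 3 or DIO replicate 1 or 2.

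On d10, 0 of 6 tested members passed, as did 0 of 15341 genes (0%), with 0 members at an unadjusted p under 0.05 and 0 called by DESeq2. Serpina3n stood at 6.82, 11.9 and 7.21 CPM in DIO against 36.4, 9.79 and 10.6 CPM in lean callus, with a log2 difference of -1.12 ± 0.51 (adjusted p = 0.686) that was -0.24 without lean replicate 1. Serpina3g stood at 33.7, 28.2 and 29.5 CPM against 11.2, 25.6 and 27.9 CPM, with no overlap and a log2 difference of 0.51 ± 0.31 (adjusted p = 0.705), or 0.19 without lean replicate 1. Hp, at 215, 201 and 209 CPM against 67.6, 185 and 133 CPM, did not overlap either, with a log2 difference of 0.71 ± 0.32 (adjusted p = 0.686), or 0.39 without that library.

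**Figure D4:**
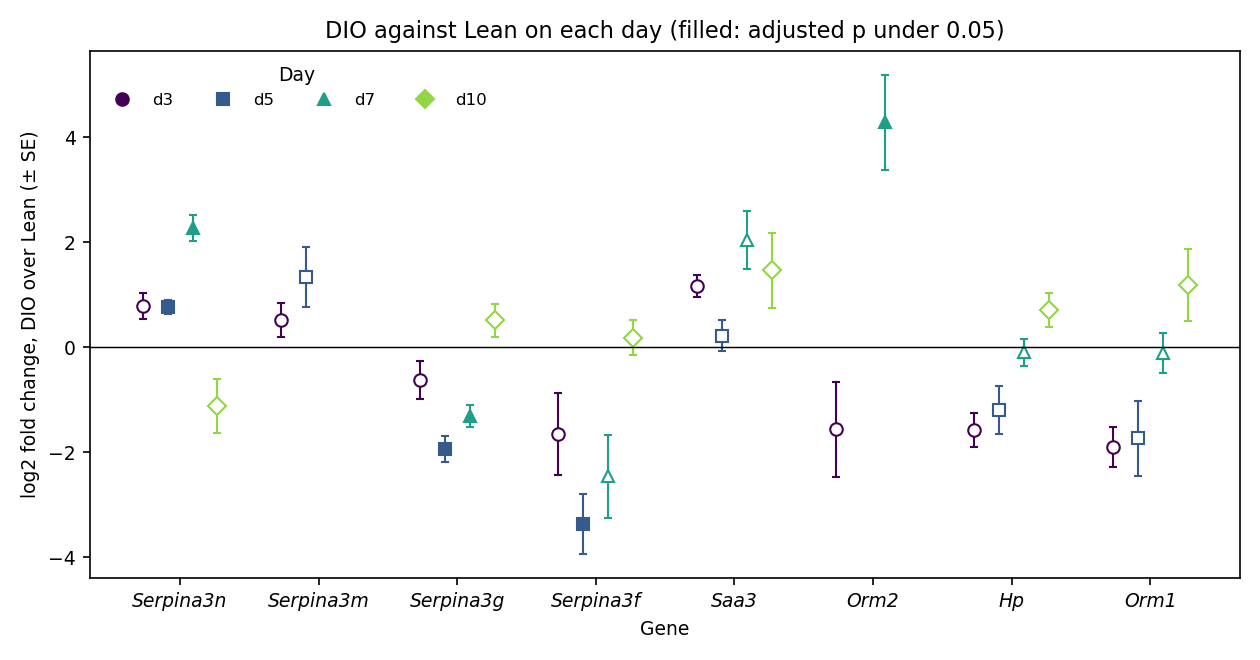
Log2 fold change of DIO over Lean callus with its standard error for 8 members on d3, d5, d7 and d10, from a fit of 3 against 3 mice on each day; filled points have an adjusted p under 0.05 and members under the filter on low counts are left out. Serpina3n is above 0 on d3 to d7 and below it on d10 (-1.12), and Serpina3g and Serpina3f are below 0 on d3 to d7 and above it on d10 (0.51 and 0.18). Without lean replicate 1 the values of d10 are -0.24 for Serpina3n, 0.19 for Serpina3g and 0.14 for Serpina3f.

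Averaged over d3 to d10 in a fit of 24 libraries and 17057 genes, 1 of the 8 tested members other than Serpina3m was higher in DIO callus (0.61% of all genes) and 2 were lower (1.85%). Serpina3m is left out of this count because the fit holds the lean libraries on which it was selected, and its log2 difference was 1.92 ± 0.40. Saa3 rose by 1.22 ± 0.25 (adjusted p = 0.0261), and Serpina3f fell by 1.82 ± 0.36 (0.0227) and Serpina3g by 0.84 ± 0.16 (0.0193) on the log2 scale. Serpina3n, at 0.68 ± 0.18 higher, had an adjusted p of 0.0518. It was called without lean replicate 1 of d10, lean replicate 1 of d7 or DIO replicate 3 of d7. As 1 library was left out, its log2 difference ran from 0.60 to 0.90 and its adjusted p from 0.00152 to 0.111. The calls of Saa3, Serpina3f and Serpina3g were lost without lean replicate 2 of d3, and those of Saa3 and Serpina3f also without lean replicate 2 of d5 or DIO replicate 3 of d3. That of Serpina3f was also lost without lean replicate 2 of d7 and that of Saa3 without lean replicate 2 of d10, with adjusted p-values no higher than 0.0572 in any of these fits.

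Whether the diet difference changed with the day was tested in the same 24 libraries, and 2 of 9 members passed, where 1.65% of all genes did. These were Serpina3n (adjusted p = 0.0233) and Serpina3g (adjusted p = 0.0308). Hp and Orm2 each had an adjusted p of 0.0959, Orm1 of 0.127 and Serpina3f of 0.161. The call of Serpina3n was lost without lean replicate 2 of d7 or DIO replicates 1 or 3 of d10 (up to 0.0849), and its adjusted p was 0.0147 without lean replicate 1 of d10. That of Serpina3g was lost without 1 of 10 libraries, lean replicates 1 or 2 of d5, 1 or 2 of d7 and 1 of d10, and DIO replicates 2 or 3 of d5 and 1, 2 or 3 of d10 (up to 0.102, and 0.0662 without lean replicate 1 of d10).

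Over the 30 libraries the members fell into groups that varied together. The log2 CPM of Serpina3f and Serpina3g had a Pearson r of 0.93 (Spearman rho 0.93), and Hp and Orm1 had 0.88. Serpina3m had an r of 0.81 with Saa3 and 0.79 with Serpina3n, and Serpina3n had 0.75 with Saa3 and 0.76 with Orm2. Serpina3n ran against Serpina3g with an r of -0.82 and against Serpina3f with -0.80. Serpina3i had an r of 0.38 with Serpina3n, -0.18 with Serpina3g and -0.36 with Serpina3f. The 2 Orm genes, though 89.9% identical, had an r of -0.023. These values are across 30 libraries that share diet and day, so differences between the group means enter them. On the deviations of each mouse from its group mean, r was 0.60 for Serpina3f with Serpina3g, 0.71 for Hp with Orm1, -0.56 for Serpina3n with Serpina3g, 0.23 for Serpina3m with Serpina3n and 0.21 for Serpina3n with Saa3. The pairs Serpina3f with Serpina3g and Hp with Orm1 thus went together among mice of the same diet and day, and Serpina3m with Serpina3n much less so. These values include lean replicate 1 of d10, which lay far from its group in Serpina3n (36.4 CPM) and Serpina3g (11.2 CPM). No r on deviations was computed without it.

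**Figure D5:**
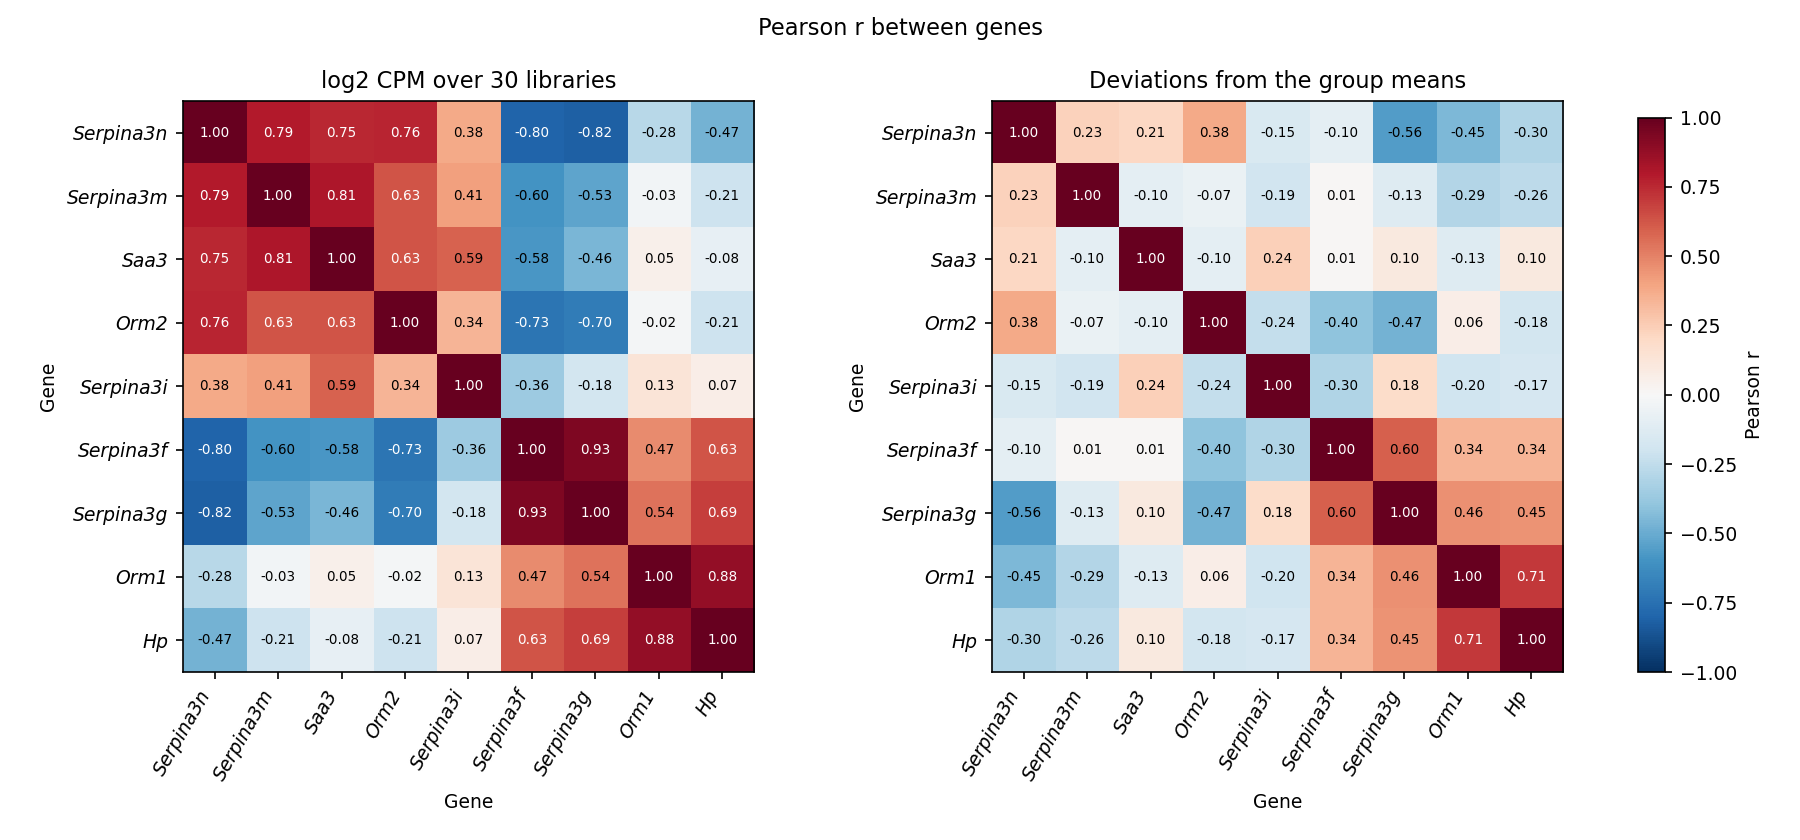
Pearson r between 9 members over 30 libraries, for log2 CPM (left) and for deviations from the group means (right), from -1 (blue) to 1 (red). Serpina3n, Serpina3m, Saa3 and Orm2 form a red block on the left (0.63 to 0.81) that is pale on the right (-0.10 to 0.38), while Serpina3f with Serpina3g (0.60) and Hp with Orm1 (0.71) remain red.

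Among 17357 genes, those most like each member in log2 CPM over the 30 libraries differed between the groups. Serpina3n was most like Tgfbi, an extracellular matrix protein induced by TGF-beta (r = 0.95), and Sod3, the extracellular superoxide dismutase (0.94). Tgfbi stood at 842 ± 166 CPM (SD, n = 3) in DIO callus of d3 and at 174 ± 5.21 CPM on d10. Orm1 was most like Ms4a3 (0.96), Ctsg (0.95) and Fcnb (0.94), genes of neutrophil precursors in the marrow, also among mice of the same group, where r was 0.93, 0.89 and 0.90. Hp was most like Plac8 (0.94), the basophil protease Mcpt8 (0.93) and Gmfg (0.92). Serpina3g was most like Arrdc4 (0.93), the natural killer cell receptor Klra8 (0.92) and Stab2, a scavenger receptor of sinusoidal endothelium (0.92). Serpina3f was most like Cr2, the complement receptor of B cells (0.91), Cd2 (0.90) and Tk2 (0.90). Saa3 was most like Lyve1 (0.86), the hyaluronan receptor of lymphatic endothelium and some macrophages, and the chemokines Cxcl14 (0.85) and Cxcl5 (0.82). Serpina3m was most like Lmnb2 (0.84), Atic (0.83) and Fancb (0.83), Orm2 like Tbc1d1 (0.80), Pgam1 (0.79) and Slc2a1 (0.78), and Serpina3i like Pde4b (0.68), Fbxo32 (0.67) and mt-Atp6 (0.67). On deviations from the group means r was -0.02, -0.026 and 0.043 for the 3 genes beside Serpina3m, 0.16 for Cxcl5 with Saa3 and 0.18 for Slc2a1 with Orm2. For each member the median r over all genes was between -0.024 and 0.022.

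Markers of several cell types moved with these members, and their part in the results was not tested. Each r with a marker sum includes lean replicate 1 of d10, the library that stood apart, and no value without it is given. The 10 neutrophil markers, all detected, summed to 12037 to 26253 CPM in lean callus of d3 and to 400 to 6146 CPM on d10, and in DIO callus to 2398 to 3841 CPM on d3 and 11221 to 27937 CPM on d21. The log2 of this sum had an r of 0.93 with Orm1 and 0.79 with Hp over the 30 libraries, and of 0.91 and 0.75 on deviations from the group means. With Orm2 its r was 0.0052. The 7 lymphocyte markers summed to 9.26 to 11.8 CPM in DIO callus of d3 and to 303 to 403 CPM on d21. Their r was 0.89 with Serpina3g, 0.84 with Serpina3f and -0.74 with Serpina3n, and on deviations from the group means 0.62, 0.45 and -0.46. With Hp and Orm1 the lymphocyte r was 0.86 and 0.74, and on deviations 0.71 and 0.73. The 10 adipocyte markers, at 203 to 413 CPM in DIO callus of d3 and 1020 to 1150 CPM on d21, had an r of 0.76 with Serpina3g, 0.68 with Serpina3f and 0.77 with Hp, and on deviations 0.27, -0.0085 and 0.50. The 8 erythroid markers were at 609 to 710 CPM in DIO callus of d3 and 23410 to 33359 CPM on d21. They had an r of 0.88 with Hp, 0.83 with Orm1, 0.72 with Serpina3f and 0.71 with Serpina3g, and on deviations 0.68, 0.81, 0.42 and 0.33. On d5 the lymphocyte sum was 21 to 79.9 CPM in lean and 4.9 to 10.8 CPM in DIO callus, and on d7 37.7 to 51.1 CPM and 7.94 to 33.3 CPM, in the direction of Serpina3g on both days. The chondrocyte sum on d7 was 6806 to 20024 CPM in lean and 20298 to 45104 CPM in DIO callus, in the direction of Serpina3n, although over the 30 libraries its r with Serpina3n was 0.035.

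The other genes of the cluster were low. Of 5 (Serpina3a, Serpina3b, Serpina3c, Serpina3h and Serpina3j), Serpina3a and Serpina3j had no count in any library. Serpina3c, with the highest mean CPM of them, went from 0.324 ± 0.188 CPM (SD, n = 3) in DIO callus of d3 to 7.84 ± 0.666 CPM on d21, a rise of 4.51 ± 0.45 (adjusted p = 1.42e-06). Like Serpina3f it passed the filter on low counts there only through libraries of d10 to d21, so its call was in part set by the filter. Serpina3b fell on d10 in lean callus by 3.05 ± 0.77 (adjusted p = 0.0124).

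Of 26 other acute-phase genes, 10 were tested in the lean and in the DIO fit, and 9 of the 26 reached a mean of 1 CPM. Lcn2, the lipocalin that binds iron siderophores and is stored in neutrophil granules, had the highest mean CPM. It went from 1175 ± 461 CPM in lean callus of d3 to 202 ± 169 CPM on d10 (adjusted p = 0.0245, lost without replicate 2 of d3 or replicate 3 of d10), and from 257 ± 46.5 CPM in DIO callus of d3 to 1122 ± 408 CPM on d21 (0.00751). On d10 against d3 in lean callus, 4 of the 10 fell (14.1% of all genes) and 1 rose (15.2%). C3, the central complement component, fell by 2.17 ± 0.38 (adjusted p = 0.00219), and Ptx3, the long pentraxin, by 1.04 ± 0.19 (0.00258). Cp, the copper oxidase ceruloplasmin, rose by 2.63 ± 0.18 (7.63e-06), and in DIO callus by 3.13 ± 0.22 on d10 (2.29e-07), where Serpina3n and Saa3 fell. In the diet comparisons Mt2, a metallothionein, rose in DIO callus on d7 by 1.70 ± 0.32 (0.0303), and Ptx3 was higher by 1.04 ± 0.21 over d3 to d10 (0.0227). The call of Mt2 was lost without lean replicate 2 or 3 or DIO replicate 1 or 2 of d7, and that of Ptx3 without lean replicate 2 of d3, d5 or d7.

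Of 18 genes for cytokines, receptors and factors of acute-phase induction, inhibitors included, all were tested, and on d10 against d3 9 fell in lean (14.1% of all genes) and 13 in DIO callus (10.8%). Il1rn, the antagonist of the IL1 receptor, fell in lean callus by 2.22 ± 0.21 (adjusted p = 7.57e-05), Il6ra fell by 2.29 ± 0.36 (0.00128) and Osm, a cytokine of neutrophils and macrophages, by 3.03 ± 0.50 (0.00156). Socs3, the feedback inhibitor that STAT3 induces, fell in DIO callus by 1.72 ± 0.23 on d10 (7.24e-05) and by 2.36 ± 0.23 on d21 (1.23e-06). Il6st, the shared receptor chain with the highest mean CPM of the list, fell in DIO callus on d10 and d21 by 0.65 ± 0.15 (0.00669) and 0.70 ± 0.15 (0.00149). The median over the 18 genes on d10 was -1.04 in lean and -1.33 in DIO callus, beside 0.023 and 0.017 over all genes tested. In the diet comparisons by day, 1 of 18 was called, on d7, where 1.4% of all genes were called higher. This was Il11, at 2.49 ± 0.51 higher in DIO callus (0.041). Its call was lost without any 1 of the lean mice or DIO replicate 1 or 2.

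Among 8 granule serine proteases of leukocytes and mast cells, the class of enzyme that A3 serpins inhibit, 2 fell on d10 in lean callus (14.1% of all genes), where Ctsg (cathepsin G) fell by 2.56 ± 0.80 (adjusted p = 0.0316) and Prtn3 fell by 2.64 ± 0.83 (0.0328). Both calls were lost without replicate 1 or 2 of d3, that of Ctsg also without replicate 1 and that of Prtn3 without replicate 3 of d10. On d21 against d3 in DIO callus 5 of 8 rose (23.5% of all genes), with Ctsg at 2.74 ± 0.41 (4.74e-05), Gzma (granzyme A) at 5.81 ± 0.82 (2.89e-05), Elane (neutrophil elastase) at 2.60 ± 0.47 (0.000294) and Prtn3 at 2.36 ± 0.50 (0.00103), while Serpina3n fell. Gzma, at 0 to 0.18 CPM on d3, passed the filter on low counts only through libraries of d10 to d21. Its call, which is among the 5, was thus in part set by the filter. Of 8 glucocorticoid-related genes 5 rose on d21 (23.5% of all genes), among them Tsc22d3 by 1.60 ± 0.29 (0.000314) and Hsd11b1, the enzyme that activates the hormone, by 1.47 ± 0.29 (0.00056). The level of Per1 in DIO callus of d21 ran from 33 to 392 CPM between the 3 mice.

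Of 7 genes for the receptors and clearance of haptoglobin and serum amyloid A, 6 fell on d10 in lean callus (14.1% of all genes). Cd163, the scavenger receptor for haptoglobin with haemoglobin, fell by 2.40 ± 0.52 (adjusted p = 0.00588) and Hmox1, which degrades the haem, by 2.23 ± 0.26 (0.00027). In DIO callus of d21 Hmox1 fell by 1.50 ± 0.20 (2.09e-05) and Cd163 by 1.23 ± 0.36 (0.0098, lost without replicate 1 of d3), whereas Fpr2, a receptor for serum amyloid A, rose by 1.94 ± 0.52 (0.00553).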

How the data were processed

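Callus RNA of 30 mice was sequenced as stranded poly(A) libraries with paired reads of 53 bases. The authors trimmed the reads with BBDuk, aligned them to GRCm38 with HISAT2 2.1.0, used HTSeq to count them on genes, and the authors deposited these raw counts as they were. The strand option and the annotation of the counting are not given in the sources used here, and reads that fit several copies of a gene can be lost or misplaced in such counts.

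The 10 genes and the gene lists were chosen with earlier results of these data known. Counts were scaled with TMM factors, filtered with filterByExpr and tested (two-sided) by quasi-likelihood in edgeR 4.0.16 under R 4.3.3 (DESeq2 1.42.0 as an alternative), with Benjamini-Hochberg adjustment over all genes tested and a threshold of 0.05. Lean days, DIO days, each day's diets (6 libraries) and d3 to d10 (24 libraries) were fitted separately, and the scripts were tested on simulated data. Errors of log2 fold changes are standard errors. Correlations used log2 CPM with a prior count of 2 and carry no test. Named beside the 10 genes are at most 4 genes of a list with the smallest adjusted p in a comparison, the highest gene of a list and the 3 genes most like a member, of which 1 is not reported here. Depth limits the genes under about 3 counts, and the spread between 3 mice the others. All 30 pairs of libraries of a group differed beyond sampling noise (chi-square per degree of freedom 12.8 to 148). Coding sequences were aligned with MAFFT 7.526. Replicate numbers number different mice, and p-values measure the spread between them.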

Additional observations from a re-analysis of the deposited data

Results flagged for a closer look

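Serpina3n and Serpina3g are singled out because their diet difference changed between days by a test of that change (3 interaction terms in a fit of 24 libraries). For Serpina3n the adjusted p was 0.0233, with DIO over lean log2 differences of 0.79 on d3, then 0.76 on d5 and 2.27 on d7, and -1.12 on d10, where it was -0.24 without lean replicate 1. For Serpina3g the adjusted p was 0.0308, with -0.63, -1.94, -1.31 and 0.51 on the same days, the last of them 0.19 without that library. Without it the adjusted p was 0.0147 for Serpina3n and 0.0662 for Serpina3g. With 3 mice in each group, no test for a mouse far from its group was run.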

How the results depend on the processing

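The 41 called log2 differences of members were refitted under 888 alternatives, of which 0 reversed a direction, and 25 of the 41 lost no call. The 41 include the difference on which Serpina3m was selected and the calls of Serpina3f, Orm2 and Serpina3m in part set by the filter. For these a kept direction was in part set in advance. The 13 calls that follow include these genes as well. Of 13 further calls from tests over several days, 2 were lost when 1 library was left out, those of Serpina3n (in 3 of 24 fits) and Serpina3g (in 10 of 24) for the change of the diet difference with day. The cause of the changes below was not tested. The counts of called members below include Serpina3m, Orm2 and Serpina3f. With DESeq2 the members called were 2 (in place of 0) for lean d5 against d3, 1 (0) for lean d10 against d7, 3 (0) for DIO d7 against d3, 2 (1) for DIO d21 against d14, 3 (0) and 5 (3) for the diets on d3 and d7, and 6 (2) for the change of the diet difference with day. With all genes of at least 1 count kept, they were 1 for lean d10 against d7 and for DIO d7 against d3, 2 for DIO d21 against d14, 3 for the diets on d3 and 4 for the change with day. One fit of all 30 libraries gave 6 (in place of 3) for the lean days, 1 for lean d10 against d7, 2 for DIO d7 against d3 and 6 for the diets on d7, and RLE size factors gave 1 for DIO d7 against d3.

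Replicate numbers name different mice, and in no comparison were all same-numbered pairs of deviations correlated over 0.1 (range -0.399 to 0.364), with 0 to 4 of 6 samples correlating best with their own number. A fit with the replicate block called 5 members for the lean days, 1 for lean d10 against d7, 1 for DIO d7 against d3, 3 for the diets on d3 and 0 for those on d5, and gave Serpina3i on DIO d7 against d3, which was not called, a log2 difference of -0.097.

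Leaving out 1 library at a time gave 3 to 6 called members for lean d10 against d3, 0 to 3 for lean d7 against d3, 0 to 1 for lean d5 against d3 and for d10 against d7, 0 to 3 for DIO d7 against d3 and 0 to 2 for DIO d21 against d14. For the diets it gave 0 to 2 on d3, 0 to 3 on d5, 1 to 4 on d7, 0 to 5 over d3 to d10 and 0 to 3 for the change with day. It also turned the sign of uncalled log2 differences. In lean callus these were Serpina3g on d7 against d3 (-0.066 to 0.46) and on d10 against d7 (-0.14 to 0.40) and Serpina3n on d10 against d7 (-1.06 to 0.12). In DIO callus they were Orm2 on d5 (-0.52 to 0.43), Serpina3f (-1.70 to 0.56) and Serpina3i (-0.59 to 0.49) on d7 against d3, and Serpina3i (-0.11 to 0.97), Orm2 (-0.082 to 0.77) and Saa3 (-0.86 to 0.13) on d21 against d14. Between diets they were Orm2 on d3 (-2.08 to 0.41), Saa3 on d5 (-0.024 to 0.36), Orm1 (-0.43 to 0.17) and Hp (-0.37 to 0.13) on d7, and Serpina3i over d3 to d10 (-0.14 to 0.48).

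Counts of all genes called moved more. DESeq2 called 4847 genes (in place of 3132) over the lean days, 605 (74), 840 (275) and 1827 (450) for lean d5 and d7 against d3 and d10 against d7, 575 (285) for DIO d5 against d3, 728 (0), 1150 (170), 944 (366) and 47 (0) for the diets on d3 to d10, 1077 (419) over these days and 1151 (282) for the change with day. Without the filter 515, 565, 724 and 29 genes were called for the diets by day, and with the replicate block 325 on d3 and 0 on d5.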
